A study of Mus musculus with 6 samples.

Results

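Interferon-stimulated genes are genes that cells switch on when interferon reaches them, and 37 of them were followed in mouse liver. The list was matched by gene symbol to the annotation of a gene expression array. Probe sets, groups of short probes that together read 1 transcript, were found for 35 of the 37 among 12393 genes tested; Oas1g and Xaf1 matched no probe set with 1 symbol and were not analysed here. Each gene is given by its lead probe set, the one with the highest mean over all arrays.

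Total liver RNA came from 6 mice, each on its own array. All 6 were labelled Ppara KO, a knockout of the gene for the nuclear receptor PPAR-alpha, on background strain C57, and were 1 month old. In the TFEB-injected group the livers of 3 mice had received an adenoviral vector to overexpress TFEB, a transcription factor that drives lysosome formation and autophagy. No injection was given to the 3 mice of the other group. The sources used here do not give the vector's promoter, its dose, the time from injection to sampling or the sex of the mice. The labels call the mice of a group biological replicates. The controls received no vector, so effects of TFEB, of the adenoviral vector and of the injection cannot be told apart. Hepatocyte markers were high in every array, and 0 of 8 passed the test. The Ppara probe set read 8.98, 8.87 and 9.01 in not-injected and 9.08, 9.04 and 9.12 in injected livers, above the level of most genes (percentile 74). The sources used here do not state whether it lies in the deleted stretch, so these values do not check the knockout label. The mouse Tfeb probe set differed by 0.04 ± 0.07 (log2, SE; adjusted p = 0.777, limma); the labels do not name the species of the vector's TFEB. Values are log2 expression levels on one quantile-normalized scale, a difference of 1 meaning a doubling. The number of arrays limits the precision.

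Interferons are secreted proteins that warn neighbouring cells of infection. Type I interferons act through a receptor and its kinases on transcription factors, STAT2 and IRF9 among them, that bind the interferon-stimulated response element in target promoters. Type II interferon, interferon-gamma, acts on promoters with gamma-activated sites and on IRF1. The genes switched on include cytosolic sensors of viral RNA, transcription factors that amplify the response, effectors that block viral replication, and GTPases that attack vacuoles holding microbes. Hepatocytes and the liver's resident macrophages, the Kupffer cells, both respond to interferon, and the liver takes up much of an adenovirus given to a mouse.

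Most of the interferon-stimulated genes read lower in the injected livers, and 1 of them, Usp18, rose. Of 35 measured genes, 14 fell and 1 rose (limma, adjusted p under 0.05 over all genes), or 40% and 2.86% of them. Across all genes tested, 7.92% fell and 9.99% rose, 17.9% in either direction. The median log2 change was -0.21, against -0.01 over all genes, and 26 of the 35 changes lay below 0. All 3 injected arrays lay below all 3 not-injected arrays for 21 of the genes, a pattern found in 18.9% of all genes. They lay above for 2, Usp18 and Irf1, a pattern found in 18.2% of all genes. The groups did not overlap for 23 of 35 members and 37.1% of all genes. In bulk liver RNA, fewer cells of a type and less RNA per cell cannot be told apart. Leaving out not-injected replicate 1, 2 or 3 left 7, 6 and 7 falls, and over all genes 525, 545 and 593 falls against 981. A fit with array weights gave 22 falls and 4 rises, while over all genes 3137 fell and 2717 rose. That fit put a weight of 16.3 on TFEB-injected replicate 2, and its estimation stopped before convergence. Leaving out TFEB-injected replicate 3 gave 3 rises, with Irf1 and Ifit2 beside Usp18.

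**Figure D1:**
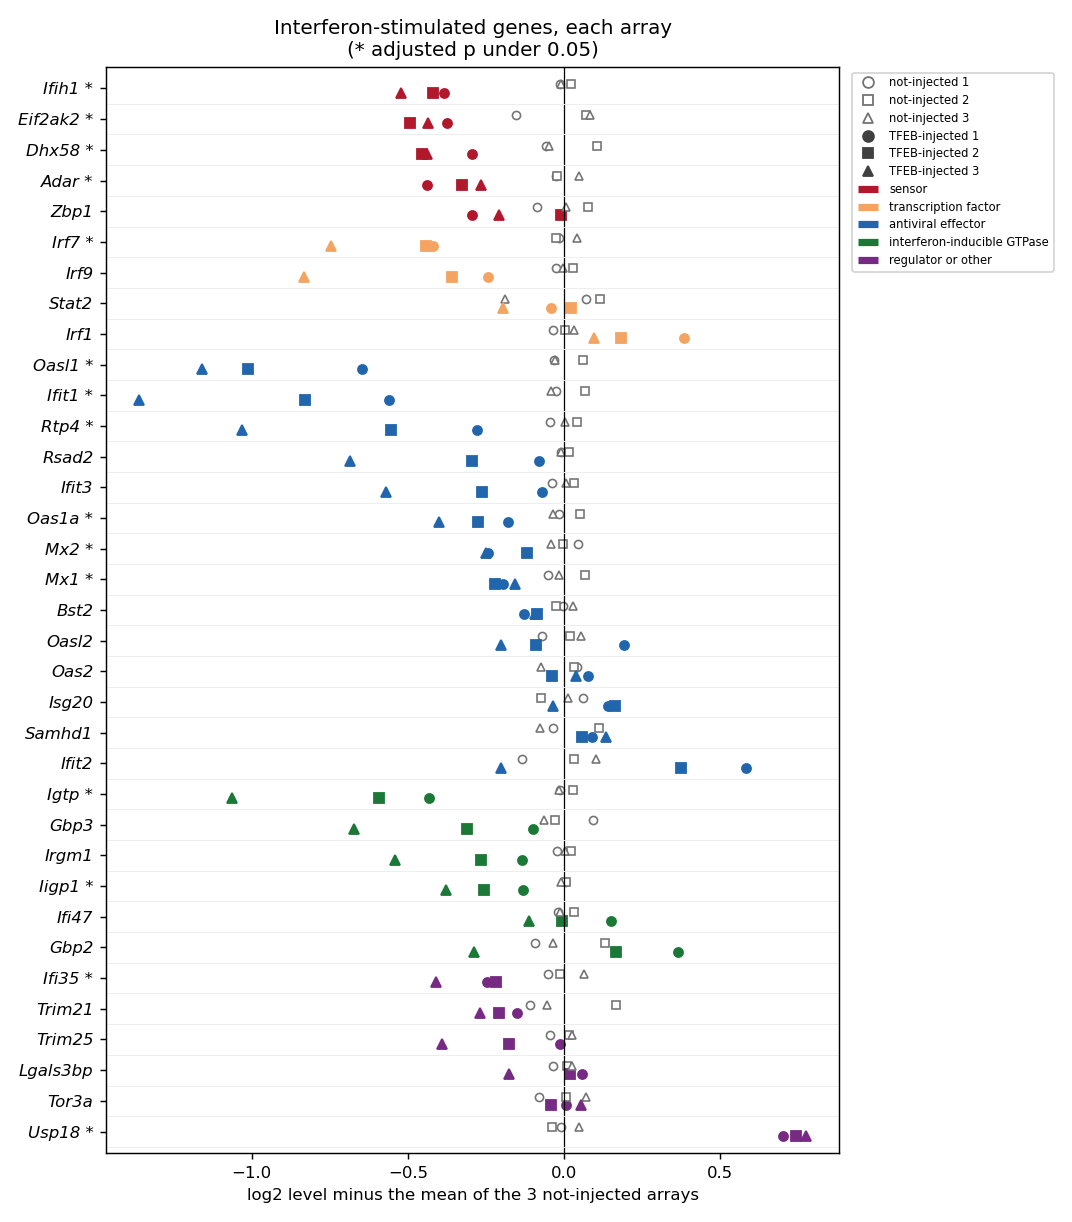
Each row is 1 gene and each point 1 array; the x axis gives the log2 level minus the mean of the 3 not-injected arrays. Open symbols are not-injected and filled symbols TFEB-injected arrays, coloured by role, and an asterisk marks an adjusted p under 0.05. Most filled symbols lie left of 0, those of Usp18 lie near 0.74, and TFEB-injected replicate 3 is the lowest injected array for 25 of 35 genes.

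The 3 injected mice differed from each other more than the 3 not-injected mice did. Over the 35 genes the median SD was 0.05 in the not-injected and 0.12 in the injected group, while over all genes it was 0.06 and 0.08. The spread had a shared direction. TFEB-injected replicate 3 gave the lowest injected value for 25 of 35 interferon-stimulated genes (71.4%), against 35.7% of all genes, and TFEB-injected replicate 1 gave the highest for 24. The median difference from the not-injected mean was -0.13, -0.22 and -0.29 in TFEB-injected replicates 1, 2 and 3. Over all genes it was -0.01, -0.02 and -0.00.

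Promoters of some members are printed next, as the stretch where interferon-activated factors are known to bind. RefSeq promoters (GRCm38.p6), from 250 bases before to 50 after the start site, were found for 28 of the 37 genes. Dhx58, Zbp1, Mx1, Mx2, Oas2, Rtp4, Iigp1, Usp18 and Tor3a had no entry. Capitals mark matches to the core of the interferon-stimulated response element (GAAA, any 2 bases, GAAA, on either strand) and to the gamma-activated site (TTCNNNGAA, which reads the same on both strands). Ifih1, Oasl1, Irf7 and Adar are the 4 falls with the smallest p that had an entry. For Adar, which has 3 starts in the promoter set, the most upstream of these is shown. The Adar gene entry begins further upstream, at chr3:89714469, outside the window shown. The start sites used for Oasl1, Irf7 and Oas1a also lie inside the span of the gene entry. Ifit1, Igtp and Oas1a were added after their values and matches were seen. The Ifih1 promoter (chr2:62646206-62646505, minus strand) holds 1 core match, after the start site. The Oasl1 (chr5:114922990-114923289, plus strand), Irf7 (chr7:141266375-141266674, minus strand) and upstream Adar (chr3:89714772-89715071, plus strand) windows hold 0 of either motif, and the most downstream Adar start has 1 gamma-activated site. Ifit1 (chr19:34640639-34640938, plus strand) holds 2 separate core matches before the start site. Igtp (chr11:58199306-58199605, plus strand) holds a gamma-activated site just before a core match. Oas1a (chr5:120907476-120907775, minus strand) holds 2 overlapping core matches and 1 gamma-activated site.
Ifih1: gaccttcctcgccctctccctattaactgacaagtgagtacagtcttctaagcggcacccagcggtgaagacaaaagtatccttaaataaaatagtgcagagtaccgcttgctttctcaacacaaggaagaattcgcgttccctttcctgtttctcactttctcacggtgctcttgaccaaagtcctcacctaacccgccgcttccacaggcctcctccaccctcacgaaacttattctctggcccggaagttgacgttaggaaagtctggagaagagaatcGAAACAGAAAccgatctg
Oasl1: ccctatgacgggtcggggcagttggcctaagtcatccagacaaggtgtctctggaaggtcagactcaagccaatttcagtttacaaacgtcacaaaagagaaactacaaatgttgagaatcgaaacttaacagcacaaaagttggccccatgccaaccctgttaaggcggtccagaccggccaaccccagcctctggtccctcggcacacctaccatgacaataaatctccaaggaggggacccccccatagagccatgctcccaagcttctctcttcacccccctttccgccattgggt
Irf7: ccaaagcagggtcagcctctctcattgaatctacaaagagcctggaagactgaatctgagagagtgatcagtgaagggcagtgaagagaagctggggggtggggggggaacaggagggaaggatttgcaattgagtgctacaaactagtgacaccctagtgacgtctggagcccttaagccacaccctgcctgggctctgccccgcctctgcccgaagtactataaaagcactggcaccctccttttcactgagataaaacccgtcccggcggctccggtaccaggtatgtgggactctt
Adar: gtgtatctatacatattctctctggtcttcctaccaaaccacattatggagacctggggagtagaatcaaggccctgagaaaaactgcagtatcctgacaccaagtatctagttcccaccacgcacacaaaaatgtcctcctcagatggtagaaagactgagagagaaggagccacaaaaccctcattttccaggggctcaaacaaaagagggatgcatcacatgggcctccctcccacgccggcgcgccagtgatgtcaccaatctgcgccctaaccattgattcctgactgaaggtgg
Ifit1: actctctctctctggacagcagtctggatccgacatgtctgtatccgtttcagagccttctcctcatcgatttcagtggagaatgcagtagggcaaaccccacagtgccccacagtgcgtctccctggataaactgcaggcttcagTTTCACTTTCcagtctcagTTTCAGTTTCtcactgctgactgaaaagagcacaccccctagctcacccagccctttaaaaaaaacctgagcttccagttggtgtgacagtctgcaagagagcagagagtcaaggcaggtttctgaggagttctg
Igtp: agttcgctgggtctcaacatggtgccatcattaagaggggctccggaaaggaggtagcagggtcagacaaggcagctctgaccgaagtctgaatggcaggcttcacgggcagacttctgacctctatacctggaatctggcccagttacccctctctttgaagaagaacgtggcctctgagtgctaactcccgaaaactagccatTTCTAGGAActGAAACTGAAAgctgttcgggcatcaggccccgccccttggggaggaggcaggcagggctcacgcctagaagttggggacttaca
Oas1a: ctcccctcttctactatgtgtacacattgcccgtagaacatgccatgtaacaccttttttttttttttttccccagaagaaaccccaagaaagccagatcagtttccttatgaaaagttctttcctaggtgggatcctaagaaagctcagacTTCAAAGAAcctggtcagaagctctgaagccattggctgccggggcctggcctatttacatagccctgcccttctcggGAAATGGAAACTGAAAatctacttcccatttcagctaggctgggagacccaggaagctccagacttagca

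The core of the response element was present in 14 of the 28 genes with a promoter (50%), against 3.99% of the 27025 genes in the promoter table. Gamma-activated sites were present in 10 of 28 (35.7%), against 9.55%. The E-box CACGTG, the core of the sites that TFEB binds, was present in 1 of 28, Trim25 (3.57%), against 8.09%. Among measured genes with a promoter, the core lay in 5 of 9 that fell and in 8 of 17 that did not pass. Gamma-activated sites lay in 5 of 9 and 5 of 17. A match is a string of letters and not a measured binding site, and members were listed because interferon induces them. Overlapping core matches occurred in Oas1a, Oas1g, Bst2, Gbp3, Irgm1 and Trim21, and in Bst2 a gamma-activated site overlapped the core.

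**Figure D2:**
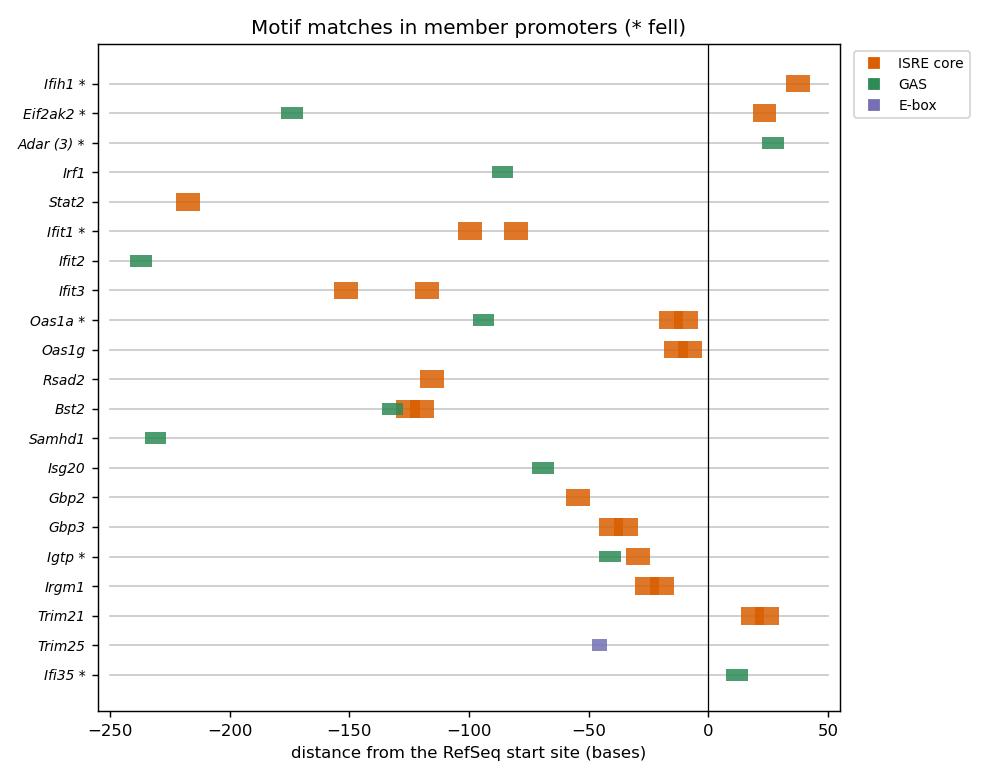
Each line is 1 promoter from 250 bases before to 50 bases after the RefSeq start site, on the gene's own strand; only promoters with a match are drawn, and a number after a gene gives which of its starts is meant. Boxes mark core matches of the response element (ISRE core), gamma-activated sites (GAS) and E-boxes, and an asterisk marks genes that fell. Matches are found in genes that fell and in genes that did not pass, and the only E-box is that of Trim25.

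Of the 5 members grouped as sensors, 4 fell (80%) and 0 rose, against 7.92% and 9.99% of all genes tested. The group holds proteins that bind viral or double-stranded RNA or Z-form nucleic acid in the cell. Other members whose proteins bind RNA, such as the IFIT genes, were grouped as effectors. Counts and medians by role rest on this grouping. The sensors had a median log2 change of -0.40, with all 4 calls kept in each fit that left out 1 array. Ifih1 (chr2:62595618-62646255) encodes MDA5, which detects long double-stranded RNA. Ifih1 read 10.63, 10.66 and 10.63 in the not-injected livers and 10.26, 10.22 and 10.12 in the injected livers. The groups did not overlap, and the level was 1.36-fold lower (log2 change -0.44 ± 0.05 SE, n = 3 and 3; limma, adjusted p = 0.00144). Dhx58 encodes LGP2, a partner of MDA5 without signalling domains of its own. Its levels were 7.93, 8.09 and 7.94 without injection and 7.69, 7.53 and 7.55 with it, a change of -0.40 ± 0.07 (adjusted p = 0.00709). Its 2 further, dimmer probe sets gave -0.06 and 0.03, and with the mean of the 3 probe sets the call was lost (adjusted p = 0.115).

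Eif2ak2 encodes PKR, a kinase that halts translation when it binds viral RNA. Eif2ak2 levels were 7.39, 7.62 and 7.63 in not-injected and 7.17, 7.05 and 7.11 in injected livers. The 2 groups did not overlap (log2 change -0.43 ± 0.07 SE; limma, adjusted p = 0.00712), and a dimmer probe set gave -0.18. Adar encodes the enzyme that edits adenosines in double-stranded RNA, which keeps a cell's own RNA from triggering MDA5. Adar went from 7.14, 7.14 and 7.21 to 6.73, 6.84 and 6.90, again without overlap (-0.34 ± 0.06; adjusted p = 0.00694). Zbp1, for a sensor of Z-form nucleic acids that can start cell death, was the sensor that did not pass. It read 7.56, 7.72 and 7.65 against 7.35, 7.63 and 7.43, and the groups overlapped (-0.17 ± 0.08; adjusted p = 0.204).

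Of the 4 transcription factors, Irf7 fell (25%, against 7.92% of all genes tested) and the other 3 did not pass. Irf7 encodes the factor that amplifies interferon-alpha production. Irf7 read 8.89, 8.88 and 8.95 in not-injected livers and 8.49, 8.47 and 8.16 in injected livers (log2 change -0.54 ± 0.09 SE; limma, adjusted p = 0.00618). Every injected array lay below every not-injected one, with replicate 3 lowest, and the call held in each fit that left out 1 array. Irf9 encodes the DNA-binding subunit of the complex that reads type I interferon signals. It also did not overlap between groups, with 8.21, 8.27 and 8.24 against 7.997, 7.88 and 7.41, but missed the threshold (-0.48 ± 0.14; adjusted p = 0.0543). It passed in 2 of the 6 fits that left out 1 array, those without TFEB-injected replicate 1 or 3 (adjusted p = 0.0228 and 0.0108). In the others adjusted p ran up to 0.148. It passed in 4 of 9 other alternatives, cyclic loess scaling among them (adjusted p = 0.046).

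Stat2, for IRF9's partner in that complex, read 6.71, 6.76 and 6.45 against 6.60, 6.66 and 6.44 (-0.07 ± 0.09 SE; limma, adjusted p = 0.652). The interval of the difference, -0.29 to 0.15 at a confidence level of 95%, still allows a change as large as that of some members that fell. Irf1, for a factor activated mainly by interferon-gamma, lay on the other side of 0. Its levels were 9.26, 9.30 and 9.33 in not-injected and 9.68, 9.48 and 9.39 in injected livers. The groups did not overlap, but the change of 0.22 ± 0.08 did not pass (adjusted p = 0.092). Of the 6 fits that left out 1 array, Irf1 passed only without TFEB-injected replicate 3 (0.28, adjusted p = 0.0324). In the others adjusted p ran up to 0.229. TFEB-injected replicate 1 was the highest array.

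Antiviral effectors held both the largest fall of the 35 members, that of Oasl1, and genes on the other side of 0. Of 14 measured, 6 fell (42.9%) and 0 rose, against 7.92% and 9.99% of all genes tested. The median log2 change was -0.20, with a range from -0.94 to 0.25. Leaving out not-injected replicate 1, 2 or 3 left 2, 1 and 2 of the 6 calls in number, and leaving out TFEB-injected replicate 2 left 3.

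The OAS family makes or resembles the enzymes that produce oligoadenylates, which switch on the RNA-degrading enzyme RNase L. Oasl1 encodes a family member without that activity, known for blocking translation of Irf7 mRNA. Oasl1 (chr5:114923143-114937911) fell from 8.08, 8.17 and 8.08 to 7.46, 7.09 and 6.95. Its level was 1.92-fold lower, with no overlap (log2 change -0.94 ± 0.12 SE; limma, adjusted p = 0.00212), and the call held whichever array was left out. Oas1a, for an oligoadenylate synthetase, fell from 9.42, 9.49 and 9.41 to 9.26, 9.16 and 9.04 (-0.28 ± 0.07; adjusted p = 0.0228). It missed the threshold in 4 of the 6 fits that left out 1 array (TFEB-injected 2 or any not-injected; adjusted p up to 0.086).

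Oas2 and Oasl2 differed by less than the spread between arrays. Oas2 levels were 8.27, 8.27 and 8.16 in not-injected and 8.31, 8.20 and 8.27 in injected livers (log2 change 0.03 ± 0.05 SE; limma, adjusted p = 0.802). Oasl2 went from 5.88, 5.97 and 6.01 to 6.14, 5.86 and 5.75, with an injected array both above and below the not-injected ones. Its change of -0.03 ± 0.10 (adjusted p = 0.857) turned to 0.00 after cyclic loess scaling. Whether the family members differed from each other was not tested.

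The IFIT genes, whose proteins bind foreign RNA caps and block translation, lie close together on chromosome 19. They read apart from each other, though differences between the genes were not tested. Ifit1 (chr19:34640889-34650009) fell from 8.84, 8.93 and 8.82 to 8.31, 8.04 and 7.51. This was 1.89-fold lower without overlap (log2 change -0.92 ± 0.18 SE; limma, adjusted p = 0.0127). It missed the threshold when not-injected replicate 2 was left out (adjusted p = 0.0554). Ifit3 (chr19:34583119-34588982) read 8.80, 8.87 and 8.85 against 8.77, 8.58 and 8.27, also without overlap, but did not pass (-0.30 ± 0.12; adjusted p = 0.122). Ifit2 (chr19:34550550-34576534) read 7.00, 7.17 and 7.24 in not-injected livers. In the injected livers it read 7.72, 7.51 and 6.93, with 2 arrays above and 1 below the not-injected range (0.25 ± 0.18; adjusted p = 0.407). Of the 6 fits that left out 1 array, Ifit2 passed as higher only without TFEB-injected replicate 3 (0.48, adjusted p = 0.0136). In the others adjusted p ran up to 0.77. In each of the 3 genes, TFEB-injected replicate 3 was the lowest array.

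Rtp4, for a protein that restrains some RNA viruses, showed a similar spread among the injected mice. Rtp4 levels were 9.80, 9.89 and 9.85 without injection and 9.57, 9.30 and 8.82 with it. All injected arrays lay below (log2 change -0.62 ± 0.17 SE; limma, adjusted p = 0.042). Leaving out TFEB-injected replicate 2 or any 1 not-injected array ended the call (adjusted p up to 0.125). A second Rtp4 probe set gave -0.15, and with the mean of both the call was lost (adjusted p = 0.109).

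Rsad2, for viperin, a radical enzyme that makes a chain-terminating nucleotide, went from 9.16, 9.19 and 9.16 to 9.09, 8.87 and 8.49. The groups did not overlap, but the change of -0.35 ± 0.14 (SE) did not pass (limma, adjusted p = 0.124). The 2 other Rsad2 probe sets gave -0.48 and -0.37.

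The Mx genes encode dynamin-like GTPases that trap viral particles; in most laboratory strains both carry mutations that inactivate the protein. Mx1 read low, at a level percentile of 14.9. It fell from 5.15, 5.27 and 5.19 to 5.01, 4.98 and 5.05 (log2 change -0.19 ± 0.05 SE, limma, adjusted p = 0.0396). Mx2 fell from 6.99, 6.94 and 6.90 to 6.70, 6.82 and 6.69 (-0.20 ± 0.05; adjusted p = 0.0402). These were the smallest changes among the genes called. Either call was lost in 5 of the 6 fits that left out 1 array (adjusted p up to 0.142 and 0.138) and after cyclic loess scaling (0.0669 and 0.0589).

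The other effectors measured did not pass. Bst2, for tetherin, which holds budding virions at the cell surface, read 11.04, 11.01 and 11.07 against 10.91, 10.95 and 10.95, lower in all injected arrays (log2 change -0.10 ± 0.04 SE; limma, adjusted p = 0.155). Samhd1, for an enzyme that depletes nucleotides needed for viral DNA, overlapped between groups (0.09 ± 0.06), and its 3 further probe sets lay between 0.05 and 0.15. Isg20, for a nuclease that degrades viral RNA, overlapped too (0.09 ± 0.07).

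Interferon-inducible GTPases were the role in which the injected mice differed most. Of 6 measured, 2 fell (33.3%) and 0 rose, against 7.92% and 9.99% of all genes tested. The median log2 change was -0.28. In all 6, TFEB-injected replicate 3 was the lowest and replicate 1 the highest injected array. The median SD was 0.03 among not-injected and 0.25 among injected arrays. Igtp, for a GTPase of the family that guards vacuoles, fell from 9.47, 9.52 and 9.47 to 9.05, 8.89 and 8.42, or 1.62-fold (-0.70 ± 0.15 SE; limma, adjusted p = 0.0165). Iigp1, of the same family, fell from 13.40, 13.40 and 13.38 to 13.26, 13.14 and 13.02 (-0.25 ± 0.07; adjusted p = 0.0377), and its second probe set gave -0.31. Leaving out any 1 not-injected array ended both calls, with adjusted p up to 0.064 for Igtp. The Iigp1 call also ended when TFEB-injected replicate 2 or 3 was left out (adjusted p up to 0.116). Leaving out TFEB-injected replicate 1 gave 4 calls among the 6 genes.

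Irgm1, a regulator of that family, lay lower in each injected array but did not pass. It read 10.51, 10.55 and 10.53 against 10.40, 10.26 and 9.99 (log2 change -0.31 ± 0.10 SE, limma, adjusted p = 0.0675). Of the 6 fits that left out 1 array, Irgm1 passed in 1 (adjusted p up to 0.174 in the others). It passed in 4 of 9 other alternatives, cyclic loess scaling among them (adjusted p = 0.0483). Gbp3, for a guanylate-binding protein, read 8.55, 8.43 and 8.39 against 8.35, 8.14 and 7.78 (-0.36 ± 0.13; adjusted p = 0.113). Its relative Gbp2 overlapped, at 6.58, 6.81 and 6.64 against 7.04, 6.84 and 6.39 (0.08 ± 0.16; adjusted p = 0.773). Ifi47, of the vacuole-guarding family, also overlapped, at 10.50, 10.55 and 10.51 against 10.67, 10.51 and 10.41 (0.01 ± 0.07; adjusted p = 0.936).

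Usp18 stood apart from the other members. It encodes the protease that removes ISG15 from proteins and that also blocks the type I interferon receptor, a brake on the response. Usp18 (chr6:121245906-121270917) rose from 10.03, 10.00 and 10.09 to 10.74, 10.78 and 10.81. The injected arrays lay close together and far above the others, 1.67-fold higher (log2 change 0.74 ± 0.05 SE; limma, adjusted p = 0.000147). It passed in all 6 fits that left out 1 array (adjusted p up to 0.00201). Usp18 has 1 probe set on the array.

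Among the remaining regulators, Ifi35, for a protein that modulates sensor signalling, fell from 9.17, 9.21 and 9.29 to 8.98, 9.005 and 8.81 (log2 change -0.29 ± 0.07 SE; limma, adjusted p = 0.0212). Leaving out any 1 not-injected array ended this call (adjusted p up to 0.073). Trim21, for a cytosolic antibody receptor, lay lower in all injected arrays, at 8.60, 8.88 and 8.66 against 8.56, 8.50 and 8.44, but did not pass (-0.21 ± 0.08; adjusted p = 0.115). Trim25, for the ubiquitin ligase that activates the sensor RIG-I, overlapped (-0.19 ± 0.09; adjusted p = 0.199). Lgals3bp (-0.03 ± 0.07) and Tor3a (0.01 ± 0.06) overlapped as well. Over all members, 17 further probe sets were available for 12 genes; 15 had the sign of the lead probe set, and neither of the other 2 passed.

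Sensors and effectors were then set side by side. The median log2 change was -0.40 for 5 sensors and -0.20 for 14 effectors. Of the sensors 80% fell and of the effectors 42.9%, against 7.92% of all genes tested. When not-injected replicate 1, 2 or 3 was left out, 4 sensors fell each time, and 2, 1 and 2 effectors. The sensor changes lay between -0.44 and -0.17, inside the effector range of -0.94 to 0.25. By array, the sensor median was -0.38, -0.42 and -0.44 in TFEB-injected replicates 1, 2 and 3, and the effector median -0.10, -0.17 and -0.23. For the GTPases it was -0.11, -0.26 and -0.46, and for the transcription factors -0.14, -0.17 and -0.47. The median SD among injected arrays was 0.09 for sensors, 0.16 for effectors and 0.25 for GTPases. Single sensors were less even than their median: Zbp1 differed by -0.29, -0.01 and -0.21 in TFEB-injected replicates 1, 2 and 3, and Adar by -0.44, -0.33 and -0.26. The difference between roles was not tested.

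**Figure D3:**
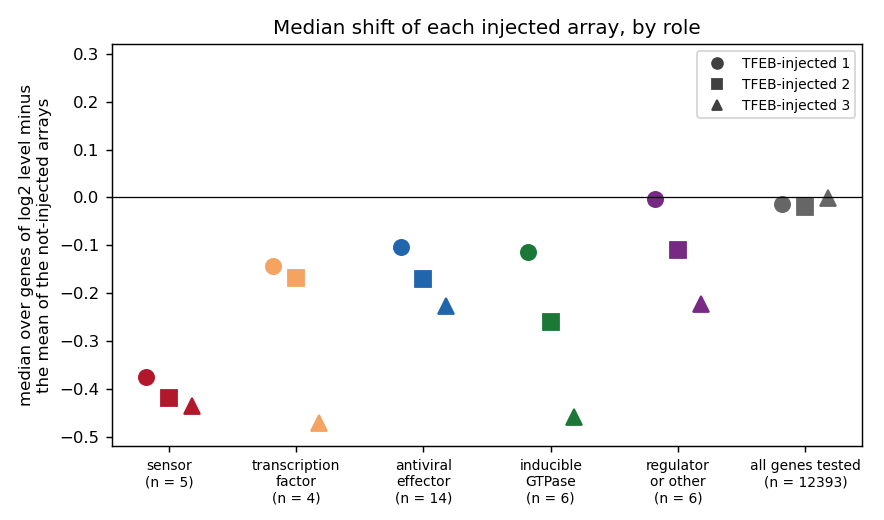
Each point is the median, over the genes of a role, of the log2 level in 1 TFEB-injected array minus the mean of the 3 not-injected arrays; marker shape gives the mouse and n the number of genes. The sensor medians lie between -0.44 and -0.38, while those of the GTPases run from -0.46 to -0.11; the medians over all 12393 genes lie near 0.

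Genes that make, receive and induce interferon signals were compared from lists written for this purpose. For comparison, 9.99% of all genes tested rose and 7.92% fell. Of 10 measured interferon ligand genes, 0 rose and Ifna11 fell (log2 change -0.22 ± 0.06 SE; limma, adjusted p = 0.0327), a call lost in 5 of the 6 fits that left out 1 array (adjusted p up to 0.103). Ifnb1, for interferon-beta, differed by -0.02 ± 0.07, and Ifng, for interferon-gamma, by 0.12 ± 0.12, and neither passed. The ligand list read low, at a median level percentile of 16.6, with Ifna11 at 4.16 and Ifng at 3.19. Changes near background are flattened, so these values cannot settle whether the ligand genes changed. Of 14 genes for receptors, kinases and feedback, 4 rose (28.6%) and 0 fell. Il10rb, for a chain of the type III interferon receptor, went from 7.74, 7.71 and 7.68 to 8.13, 8.17 and 8.11 (0.43 ± 0.04; adjusted p = 0.000953). Both chains of the interferon-gamma receptor rose, Ifngr2 by 0.37 ± 0.06 and Ifngr1 by 0.27 ± 0.05. Ptpn11, for a phosphatase, was the remaining rise (0.24 ± 0.05), a call lost in 5 of the 6 fits that left out 1 array (adjusted p up to 0.0979). The type I receptor genes Ifnar1 (0.09 ± 0.05) and Ifnar2 (-0.04 ± 0.05) did not pass.

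Genes for nucleic acid sensing and interferon induction lay on both sides, and of 16 measured, 2 rose and 3 fell. These are 12.5% and 18.8%, against 9.99% and 7.92% of all genes tested. Mavs, for the mitochondrial adaptor of RNA sensors, rose from 10.16, 10.14 and 10.12 to 10.61, 10.48 and 10.37 (log2 change 0.35 ± 0.07 SE; limma, adjusted p = 0.0109). Irf2, for a repressor of interferon targets, fell by 0.36 ± 0.06 and Irf5, for an inducer of inflammatory genes, by 0.48 ± 0.08. Irf3, for the factor that starts interferon-beta transcription, fell by 0.24 ± 0.05. Leaving out any 1 not-injected array ended this call (adjusted p up to 0.0736), as did the mean of its 4 probe sets or leaving out _s_at and _x_at probe sets, which may bind related transcripts. Tlr3, for an endosomal RNA receptor, rose by 0.22 ± 0.06, a call lost in 4 of the 6 fits that left out 1 array (adjusted p up to 0.137) and without _s_at and _x_at probe sets. Without those probe sets the list held 1 rise and 1 fall. Tlr7 (0.03), Tlr9 (-0.04) and Sting1 (0.10), for other sensing genes, did not pass.

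A further list of 44 other interferon-induced genes held 7 falls and 2 rises, with a median of -0.00. These are 15.9% and 4.55%, against 7.92% and 9.99% of all genes tested. Ddx60, for a helicase that aids RNA sensing, fell from 7.06, 7.13 and 7.25 to 6.35, 6.27 and 6.50 (log2 change -0.78 ± 0.08 SE; limma, adjusted p = 0.000713). Gbp7 fell by 0.56 ± 0.08 and Nmi, which binds Ifi35 protein, by 0.33 ± 0.06. Epsti1 rose by 0.37 ± 0.05, a call lost with the mean of its 3 probe sets. Psmb9, for an immunoproteasome subunit, rose by 0.26 ± 0.07, a call lost in 5 of the 6 fits that left out 1 array (adjusted p up to 0.122). In the 3 fits that left out a not-injected array there were 3 or 4 falls and 1 rise, and leaving out TFEB-injected replicate 2 gave 4 and 1.

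**Figure D4:**
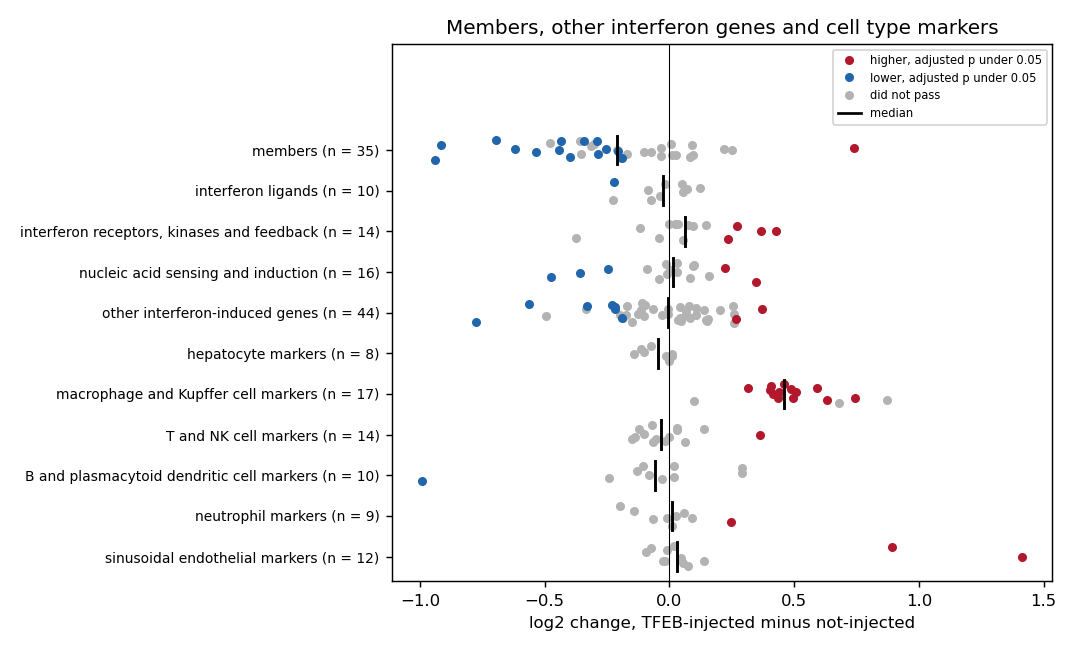
Each point is 1 gene and the x axis its log2 change, TFEB-injected minus not-injected; rows are the members, other interferon genes and cell type markers, with the number measured in brackets. Red points rose, blue points fell, grey points did not pass, and black bars are medians. The member median lies at -0.21 and that of the macrophage and Kupffer cell markers at 0.46.

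Markers of cell types that carry interferon responses were read beside these results. For comparison, 9.99% of all genes tested rose and 7.92% fell. Of 17 macrophage and Kupffer cell markers, 13 rose and 0 fell, with a median of 0.46; Cd5l changed by 0.63 ± 0.05 and Ctss by 0.44 ± 0.05 (log2, SE; limma). Their summed linear signal was 10640 to 10950 in not-injected and 14040 to 16590 in injected livers. In TFEB-injected replicates 1, 2 and 3 it was 16590, 15950 and 14040. The hepatocyte sum was 188800 to 189500 in not-injected livers and 186300, 183800 and 180100 in the injected ones. The macrophage, hepatocyte and endothelial sums were lowest among the injected mice in replicate 3, where 25 of the 35 members were also lowest. The T and NK cell sum was highest in that replicate, at 824, 815 and 850 in TFEB-injected replicates 1, 2 and 3. So were the B and plasmacytoid dendritic cell sum (1248, 1481 and 1895) and the neutrophil sum (492, 520 and 531). Of 12 sinusoidal endothelial markers, 2 rose, Stab2 (1.42 ± 0.05) and Lyve1 (0.89 ± 0.07), and 10 did not pass. The median change of this list was 0.03, and 5 of the 12 changes lay below 0. Its summed signal was 5348 to 5669 in not-injected livers and 7078, 6647 and 5735 in TFEB-injected replicates 1, 2 and 3. That sum includes Stab2 and Lyve1, and none was made without them. Of 10 B cell and plasmacytoid dendritic cell markers, Ighm fell (-0.99 ± 0.20), a call that ended when replicate 2 of either group was left out (adjusted p up to 0.0632). Ighm carried most of that list's sum, 2346 to 2625 against 1248 to 1895. The sum of the other 9 markers, of which 0 passed, overlapped at 583 to 604 and 557 to 607. T and NK cell sums (14 markers) were 821 to 856 and 815 to 850, and neutrophil sums (9 markers) 507 to 530 and 492 to 531. Gzma rose (0.36 ± 0.08), a call lost in 3 of the 6 fits that left out 1 array (not-injected 2 or 3, TFEB-injected 2; adjusted p up to 0.07). S100a8 rose (0.25 ± 0.07), a call lost whichever array was left out (adjusted p up to 0.154). Log2 array values have no 0, so no marker can be called absent. The part of cell composition in the changes of the members was not tested.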

How the data were processed

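Deposited values were log2 expression levels per probe set, made by the authors with RMA in the affy package, per the submitters' processing notes (versions not given in the sources used here). RMA corrects background, gives all arrays one distribution and flattens changes near background, so a dim gene's fold may read too small, and shifts in total RNA are invisible. Control probe sets (64 of 22690) and those without exactly 1 gene symbol were left out, leaving 20380 for 12393 genes. Some probe sets (_s_at, _x_at) may also bind transcripts of relatives. Among members, the lead probe sets of Gbp2, Samhd1 and Trim25 are of this kind. Binding to relatives within close families (Oas, Ifit, Gbp) was not otherwise checked.

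Groups and replicate numbers came from the labels, which give no batch. The comparison was fitted with limma 3.58.1 in R 4.3.3 (lmFit, eBayes), two-sided, with Benjamini-Hochberg adjustment over all genes at 0.05; it was tested on simulated data. "Rose" and "fell" are used of genes that passed, and changes are injected minus not-injected ± SE. The members, gene lists, roles and alternatives were chosen with earlier results of these data known. Named genes are all measured members, up to 3 called genes in each direction of each other interferon list, and up to 2 called markers per cell type; Ifnb1, Ifng, Ifnar1, Ifnar2, Ptpn11, Tlr7, Tlr9 and Sting1 were named after their values were seen. Figures were drawn with matplotlib 3.10.9.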

Additional observations from a re-analysis of the deposited data

How the results depend on the processing

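Of 15 called members, 7 kept the call whichever array was left out (Ifih1, Dhx58, Eif2ak2, Adar, Irf7, Oasl1 and Usp18), and all of these but Dhx58 also kept it under every other alternative in which they were measured. The number of members that fell ranged from 6 to 18 when 1 array was left out, and the number that rose from 1 to 3. Over all genes the falls ranged from 507 to 1065 and the rises from 722 to 1344 when 1 array was left out, against 981 and 1238. With the replicate number as a block, 9 members fell and 610 of all genes fell. The labels do not say whether the numbers pair mice. Deviations of same-numbered arrays correlated at 0.01, -0.13 and -0.11, and those of differently numbered arrays at -0.04 to 0.16. With 3 arrays per group these values cannot settle the question of pairing. The cause of these moves was not tested. With array weights, 22 members fell and 4 rose, and 3137 of all genes fell and 2717 rose; this fit gave TFEB-injected replicate 2 a weight of 16.3 and its estimation stopped before convergence. Weights by group, chosen after seeing the data, gave 15 falls and 1 rise. Leaving out genes below the median level moved the median of the members to -0.29 and that of the effectors to -0.30, since fewer genes were tested. The mean of all probe sets moved the sensor median to -0.31. With 1 array left out, the sensor median ranged from -0.45 to -0.35.

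Signs turned for 6 genes, none of which passed in any setting. With array weights the changes were -0.044 for Oas2, -0.0016 for Ifi47, 0.024 for Lgals3bp and -0.022 for Tor3a. Oasl2 gave 0.0035 after cyclic loess. With 1 array left out, Oas2 ranged from -0.012 to 0.057, Oasl2 from -0.15 to 0.051, Gbp2 from -0.061 to 0.27, Ifi47 from -0.059 to 0.072, Lgals3bp from -0.079 to 0.038 and Tor3a from -0.033 to 0.043. Median centring, cyclic loess, the intensity trend and leaving out _s_at and _x_at probe sets kept the count of falls between 12 and 14. Median centring could move little, as the array medians already ran from 6.915 to 6.927. No member that fell has an _s_at or _x_at lead probe set, so leaving those out could hardly change its call. Scaling moved the median of all genes by less than 0.1.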
